A study of Mus musculus with 137 samples.

Results

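The comparison described here is that of duodenal crypts from untreated mice at day 91 with those at day 8, 5 libraries against 5, chosen by their labels from a drinking water study of hexavalent chromium, Cr(VI), with 68 libraries of day 8 and 69 of day 91 in all. Each of the 10 libraries came from 1 mouse. The study exposed female wild-type B6C3F1 mice to 0, 0.1, 1.4, 5, 20, 60, or 180 ppm Cr(VI), given as sodium dichromate dihydrate in the water, and microdissected crypts and villi from fixed and embedded duodenum. RNA was read with TempO-Seq, in which pairs of short probes are ligated on a target RNA and counted. The untreated mice received water with 0 ppm Cr(VI) for 7 days (mice 46 to 50) or 90 days (mice 3, 5, 6, 7, and 8), and the study calls the collections days 8 and 91. The age of the mice is not given in the sources used here. Mice of the 2 days were different animals collected on different occasions, so the length of the study, the age of the mice, and the collection occasion cannot be told apart. Crypts scraped from a section also hold the cells around them, and in such bulk samples fewer cells of a type and less RNA per cell cannot be told apart.

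Crypts are the pits of the intestinal lining in which stem cells divide, Paneth cells at the base secrete antimicrobial peptides, and young absorptive and secretory cells move up toward the villi. The connective tissue around them, the lamina propria, is rich in plasma cells and other immune cells. Glucocorticoids, the adrenal stress hormones, act on many of these cells through a nuclear receptor, and *Fkbp5*, *Sgk1*, *Zbtb16*, and *Tsc22d3* are among the genes that this receptor is known to switch on.

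The libraries held 3443712, 4759008, 3185711, 2943846, and 4300195 counts at day 8 (mice 46, 47, 48, 49, and 50, the order used for day 8 throughout). At day 91 they held 3330269, 5136000, 4808877, 5101063, and 2717447 counts (mice 3, 5, 6, 7, and 8, likewise). Between 14967 and 20705 probes had at least 1 count in a library. For neither total counts nor probes detected was a difference between the days detected beyond the spread between mice (exact permutation tests, two-sided, 5 against 5, p = 0.389 and 0.897, adjusted p = 0.778 and 0.897, where the smallest possible p is 0.00794).

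Levels are given as CPM, which are counts scaled to the library total and to its composition. The labelled compartment was checked with 6 crypt markers (*Defa22*, *Defa5*, *Lyz1*, *Mmp7*, *Ephb2*, and *Pcna*) and 2 villus markers (*Vil1* and *Klf4*). The crypt markers summed to 18429, 19438, 9393, 1424, and 5245 CPM at day 8 and 10446, 12642, 5791, 6694, and 4506 CPM at day 91. Mouse 49 was the lowest of the 10. Villus markers summed to 5894, 4290.3, 4848, 8971, and 3160.0 CPM at day 8 and 3091, 5486, 4263, 4756, and 5879 CPM at day 91, and mouse 49 was the highest. The crypt library of mouse 49 thus went against its label, with *Lyz1* and *Mmp7*, the Paneth cell lysozyme and matrilysin, at 335 and 73.1 CPM where the other day 8 crypts held at least 1453 and 289. Genes of the exocrine pancreas, which lies against the duodenum, summed to 10818, 10822, 55712, 22136, and 1126 CPM at day 8 and 1129, 211716, 1543, 31962, and 4584 CPM at day 91, and mouse 5 stood far above the others. *Cpa1*, the most abundant of the 27 acinar genes and a defining one, was at 1115, 1145, 6188, 2332, and 1.139 CPM at day 8 and 1.46, 34370, 1.67, 4112, and 462 CPM at day 91. The crypt of mouse 50 was apart for B cell genes, as described below. No difference between the days was detected for any of the 3 sums (log2 difference -0.025 for crypt markers, -0.16 for villus markers, and -0.32 for acinar genes, exact permutation p = 0.976, 0.587, and 0.849, adjusted p = 0.976 for each).

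**Figure D1:**
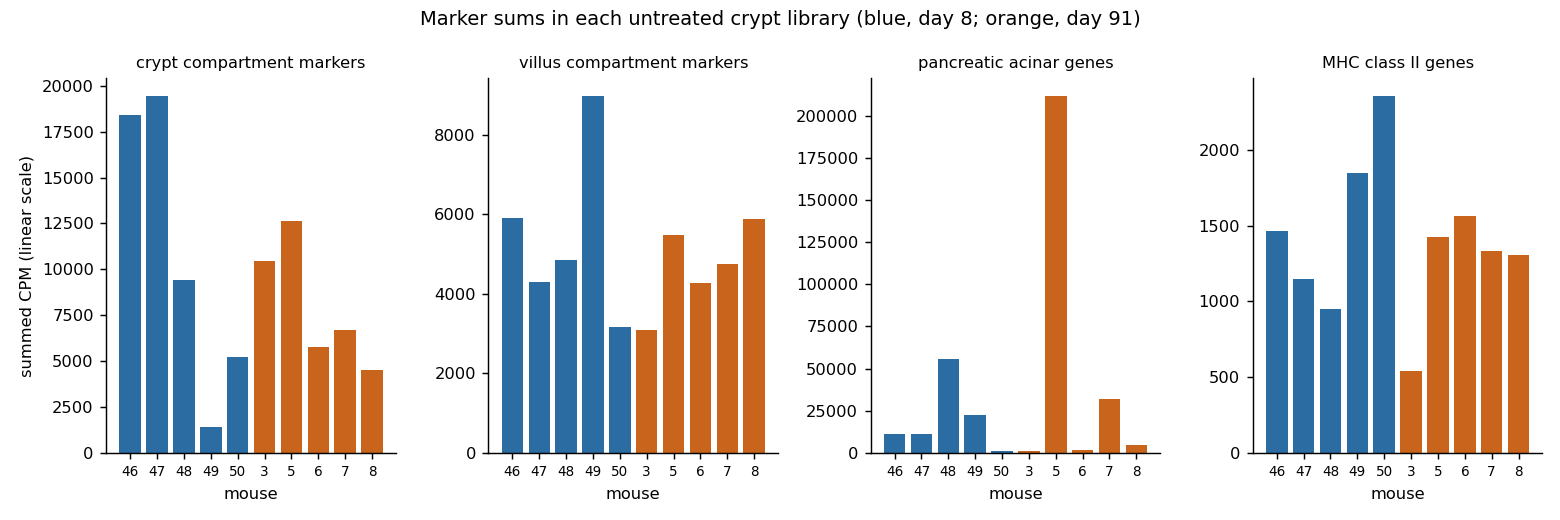
Summed CPM on a linear axis (1 bar per untreated crypt library, mice on the x axis, blue for day 8 and orange for day 91) of the crypt markers, the villus markers, the pancreatic acinar genes, and the genes of MHC class II. Mouse 49 was lowest for crypt and highest for villus markers, mouse 5 was highest for acinar genes, and mouse 3 was lowest and mouse 50 highest for MHC class II.

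Of 26365 probes (19020 genes) tested, 10 probes of 8 genes passed the threshold of an adjusted p under 0.1 between day 91 and day 8, which is 0.0379% of the probes. Among them *Ugt2b5* was higher at day 91. *Fkbp5*, *Sgk1*, *Reg2*, *1700109H08Rik*, and the immunoglobulin segments *Ighv1-47* and *Igkv11-125* were lower, *Fkbp5* and *Ighv1-47* by 2 probes each. Without adjustment 1833 probes (6.95%) had p under 0.05. All 5 day 91 libraries were above all 5 of day 8 for 122 probes (0.463%) and below them for 81 (0.307%). The median log2 change over all probes was -0.012, with 12085 probes higher and 13367 lower. The calls depended on the form of the test. The form that the installed edgeR uses by default called 1 gene (*Ugt2b5*) and DESeq2 called 24. In simulated data of this comparison most of the probes that the main form called were unchanged ones, and none of those that the default form called were. With 1 library left out at a time the main form called 2 genes (without mouse 48) to 13 (without mouse 47), with 3 without mouse 8, 4 without mouse 49, 5 without mouse 3, 5 without mouse 6, and 12 without mouse 50.

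**Figure D2:**
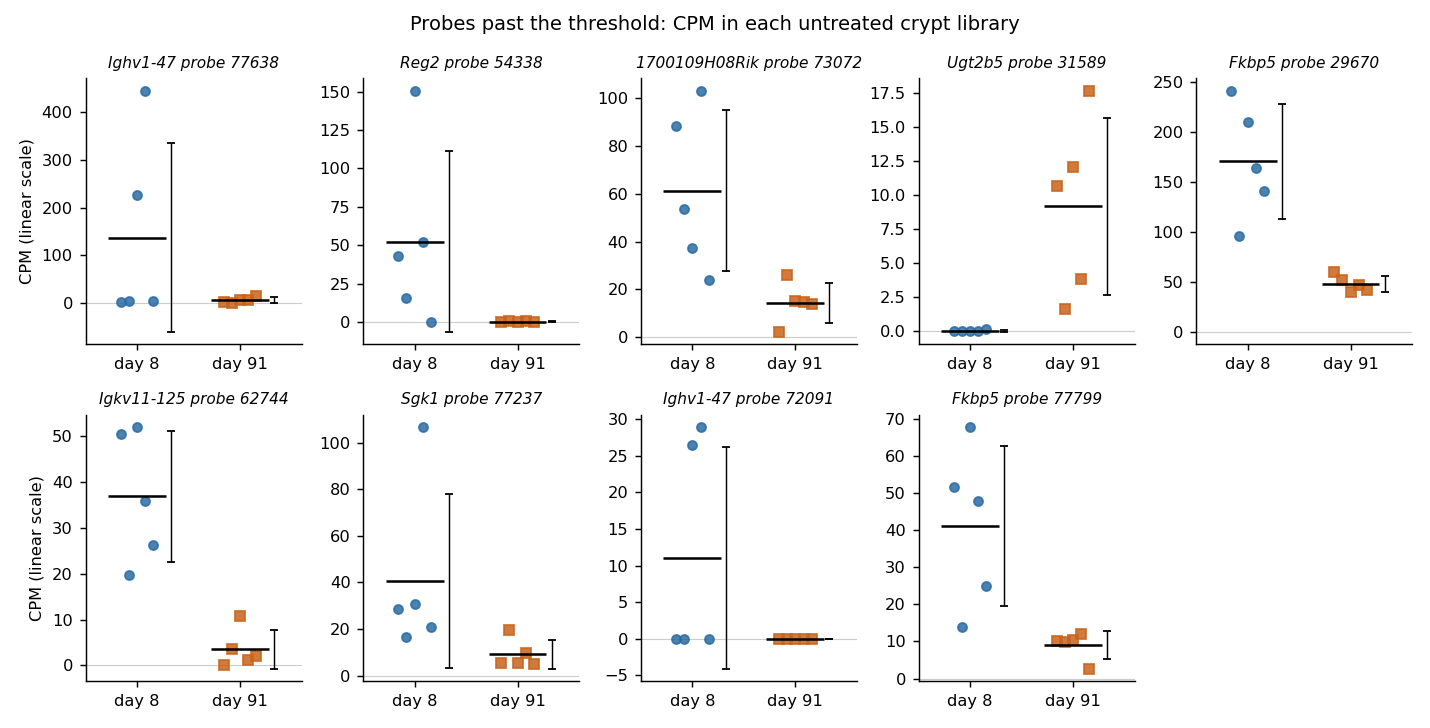
CPM on linear axes, each with its own scale, of 9 of the 10 probes past the threshold in the crypts of untreated mice at day 8 (circles) and day 91 (squares), 1 point per library, with a line at the mean and a bar of 1 SD beside it. The day groups did not overlap for *Fkbp5* by either probe, *Ugt2b5*, and *Igkv11-125*, while *Ighv1-47* was high in mice 48 and 49 alone.

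Genes that respond to glucocorticoids held 2 of the 8 calls. *Fkbp5* (chr17:28399094-28517527, minus strand, GRCm38), which encodes a chaperone that binds the glucocorticoid receptor and restrains it, was at 241, 96.5, 210.2, 164, and 141 CPM at day 8 and 59.9, 52.4, 40.6, 46.6, and 42.3 CPM at day 91. Every day 91 library was below every day 8 library. The means were 170.5 ± 57.04 CPM at day 8 and 48.4 ± 7.91 CPM at day 91 (SD, n = 5), a log2 change of -1.81 (SE 0.376, edgeR adjusted p = 0.0175). Its second probe went from 51.5, 13.96, 67.7, 47.9, and 25.1 CPM to 10.2, 9.82, 10.4, 12.1, and 2.62 CPM, also without overlap, with a log2 change of -2.10 (SE 0.491, edgeR adjusted p = 0.0906). The first probe no longer passed without mouse 46 (adjusted p = 0.122), mouse 48 (adjusted p = 0.106), mouse 6 (adjusted p = 0.155), and mouse 8 (adjusted p = 0.124), although its log2 change stayed between -1.96 and -1.65 when single libraries were left out, and the second no longer passed without 8 of the 10 libraries (mice 46, 48, 49, 3, 5, 6, 7, and 8, with adjusted p from 0.187 without mouse 7 to 0.339 without mouse 6). A fit of the 10 libraries alone kept the call of the first probe and lost that of the second (adjusted p = 0.112), which thinning the counts to the smallest total lost as well (adjusted p = 0.198). Neither probe passed with mice 7 and 49 left out together, or in the default form of edgeR.

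*Sgk1* (chr10:21882184-21999903, plus strand), a kinase of epithelial sodium transport, was at 28.8, 16.6, 30.8, 107, and 20.9 CPM at day 8 and 5.58, 19.6, 5.56, 9.82, and 4.91 CPM at day 91. Mouse 49, the library with villus character, was the highest of day 8, and mouse 5 at day 91 was above mouse 47 at day 8, so the groups overlapped. The log2 change was -2.13 (SE 0.495, edgeR adjusted p = 0.0906). Without mouse 49 it was -1.40 (adjusted p = 0.666), and the call was also lost without mouse 48, 3, 6, 7, or 8 (adjusted p = 0.126, 0.323, 0.379, 0.22, and 0.236). In untreated villi *Sgk1* was at 97.7 ± 48.4 CPM (SD, n = 5) at day 8. With the ratio of crypt to villus markers as a covariate the log2 change was -1.82 and did not pass (adjusted p = 0.224), nor did it pass in a fit of the 10 libraries alone (adjusted p = 0.329) or with counts thinned to the smallest total (adjusted p = 0.179).

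The promoters of these 2 genes are shown because they are the called members of the list, as the 250 bases before a transcription start in RefSeq (GRCm38.p6), 5′ to 3′. The capitals in *Sgk1* mark the full glucocorticoid response element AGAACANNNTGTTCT, found on either strand, in 1 of its 6 start windows. Those in *Fkbp5* mark CACGTG, the E-box that clock proteins bind.
Sgk1, chr10:21993640-21993889, plus strand: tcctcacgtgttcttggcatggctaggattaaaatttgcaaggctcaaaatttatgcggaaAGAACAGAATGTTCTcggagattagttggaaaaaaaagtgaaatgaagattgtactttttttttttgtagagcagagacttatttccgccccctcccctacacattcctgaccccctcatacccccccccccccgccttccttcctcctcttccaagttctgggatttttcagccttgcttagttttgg
Fkbp5, chr17:28486150-28486399, minus strand: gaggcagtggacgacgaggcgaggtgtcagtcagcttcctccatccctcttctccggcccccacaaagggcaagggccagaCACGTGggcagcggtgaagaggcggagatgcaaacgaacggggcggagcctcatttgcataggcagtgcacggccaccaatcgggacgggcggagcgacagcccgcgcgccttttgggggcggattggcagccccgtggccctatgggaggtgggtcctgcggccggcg
The full element was in 3 of the 32851 windows of all genes (0.00913%). Its arm AGAACA was in 18.2% of the 27025 genes with a window and in 3 of the 12 genes of the list with one, and CACGTG was in 6.86% of all genes and also in 3 of the 12. In the *Sgk1* window a further AGAACA on the minus strand overlaps a CACGTG at its 5′ end, and both arms of the full element count as matches. The *Fkbp5* window holds no AGAACA, which says only that these letters are not in this window.

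Over the list of glucocorticoid-responsive genes, 5 of 18 tested genes were higher and 13 lower at day 91, with a median log2 change of -0.66 (from -0.94 without mouse 8 to -0.43 without mouse 46 when single libraries were left out), against -0.012 over all probes, and 2 were called, where 0.0368% of all genes were by the probe with the most counts. *Fkbp5* and *Zbtb16* were the 2 members whose day 91 libraries were all below those of day 8, where 0.331% of all genes were. *Zbtb16*, a transcription factor that glucocorticoids induce, was at 23.4, 31.4, 35.7, 27.9, and 24.5 CPM at day 8 and 19.4, 3.82, 2.41, 0.770, and 3.603 CPM at day 91. Its log2 change of -2.29 (SE 0.647, edgeR adjusted p = 0.367) did not pass, and without mouse 3, the highest of day 91, it was -3.52 (adjusted p = 0.0837). *Tsc22d3*, the leucine zipper protein GILZ and the most abundant member, was at 342, 236, 267, 238, and 189.6 CPM at day 8 and 86.6, 213, 90.8, 126, and 131 CPM at day 91, and mouse 5 of day 91 lay within the range of day 8 (-0.98, edgeR adjusted p = 0.459). *Angptl4*, an inhibitor of lipoprotein lipase, was at 74.8 ± 28.9 CPM at day 8 and 35.6 ± 22.4 CPM at day 91 (-1.09, edgeR adjusted p = 0.661). *Errfi1*, an inhibitor of the EGF receptor, was at 127 ± 61.3 CPM at day 8 and 66.8 ± 29.2 CPM at day 91 (-0.93, edgeR adjusted p = 0.664). The receptor gene *Nr3c1* itself was at 65.5 ± 26.98 CPM at day 8 and 87.1 ± 20.4 CPM at day 91, and *Hsd11b2*, whose enzyme inactivates corticosterone, at 31.7 ± 11.2 CPM at day 8 and 53.3 ± 10.6 CPM at day 91. *Mt2*, a metallothionein, was the member with the largest positive change (2.35, edgeR adjusted p = 0.367), which was 0.82 without mouse 5, where it reached 276 CPM.

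The mice given 0.1, 1.4, or 5 ppm Cr(VI) give a comparison of the same days in 15 crypt libraries of day 91 and 16 of day 8, none of them an untreated library. In these mice the length of exposure to Cr(VI) differs between the days as well, and it cannot be told apart from time. They share the collection occasions with the untreated mice, so a change seen in both does not separate time from occasion. *Fkbp5* ran from 44.0 to 244 CPM with a median of 123 at day 8 and from 20.5 to 77.3 CPM with a median of 42.2 at day 91, and fell (log2 change -1.40 (SE 0.214, edgeR adjusted p = 1.42e-06)). *Zbtb16* also fell there, with a log2 change of -1.51 (SE 0.391, edgeR adjusted p = 0.00939). *Sgk1* ran from 0.986 to 22.8 CPM with a median of 9.93 at day 8 and from 1.95 to 19.7 CPM with a median of 14.7 at day 91. These day 8 levels were mostly below the 16.6 to 107 CPM of the untreated crypts, and the log2 change was 0.41 (SE 0.305, edgeR adjusted p = 0.578). *Tsc22d3*, *Angptl4*, and *Errfi1* had log2 changes of 0.034, 0.44, and 0.34, none past the threshold. The list's median was -0.026, with 2 genes lower and 1 higher past the threshold, where 2.87% and 3.63% of all genes were.

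**Figure D3:**
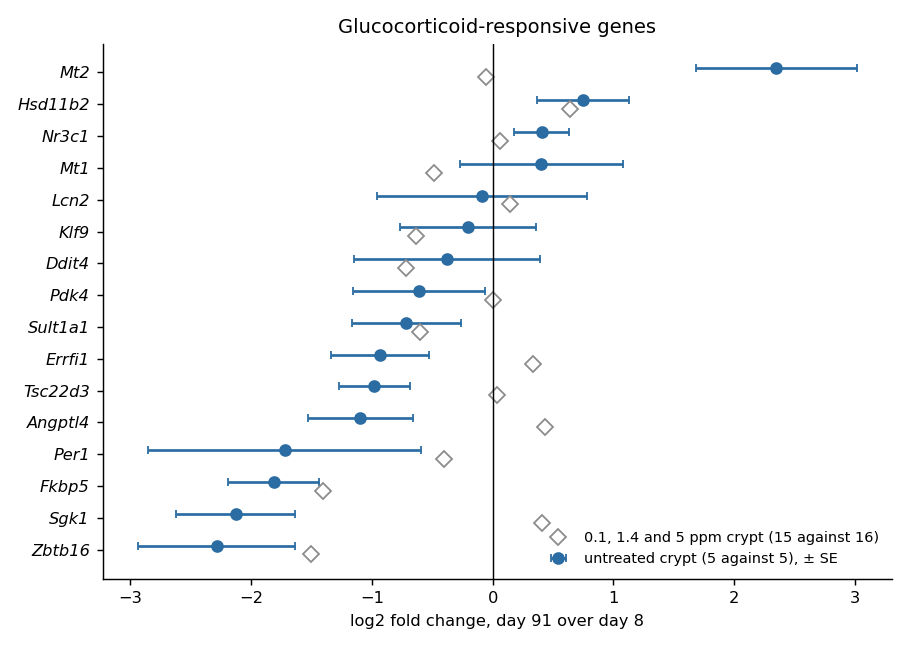
Log2 change from day 8 to day 91 (x axis) of the 16 glucocorticoid-responsive genes with a mean of 2 CPM or more on either day. Circles with bars of 1 SE are the untreated crypts (5 against 5 libraries) and diamonds the crypts at 0.1, 1.4, and 5 ppm (15 against 16). *Fkbp5* and *Zbtb16* lie left of 0 in both. *Sgk1*, *Tsc22d3*, *Angptl4*, and *Errfi1* lie left of 0 for the untreated crypts and right of it for the others, a difference that passed for none of the 4 (interaction test of edgeR, adjusted p = 0.221, 0.4, 0.384, and 0.449).

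*Reg2* (chr6:78395623-78408106, plus strand), a secreted lectin of the regenerating family made in the pancreas and gut, was at 42.8, 15.6, 151, 52.2, and 0 CPM at day 8 and 0, 0.819, 0, 0.578, and 0 CPM at day 91. It was near 0 in every day 91 crypt and also at 0 in mouse 50 at day 8. The log2 change was -7.33 (SE 1.45, edgeR adjusted p = 0.00972), and the call was lost without mouse 48 (adjusted p = 0.163). Crypts of the low concentrations had *Reg2* that ran from 0 to 55.5 CPM with a median of 8.21 at day 8, while the highest of the 15 libraries of day 91 held 0.650 CPM (log2 change -7.74 with edgeR adjusted p = 5.03e-06). Untreated villi had 85.3, 48.6, 31.8, 152, and 0 CPM at day 8, and 0 CPM in mice 3, 5, and 6 and 20.7 CPM in mouse 7 at day 91.

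*Reg2* was the 1 called member (0.0368% of all genes were called) of a list of defence genes that epithelium switches on during inflammation, in which 8 of 24 tested genes were higher and 16 lower at day 91, with a median log2 change of -0.56 (-0.20 at bounds). With single libraries left out the median ran from -0.96 without mouse 3 to -0.36 without mouse 46. The value at bounds sets each gene that was at 0 on a day to the smallest change that a floor of 3 counts per library allows. The list's sum, of which *Reg1* is the most abundant member, was 4187 ± 876 CPM at day 8 and 5973 ± 2038 CPM at day 91, opposite in sign to the median. *Reg3b* and *Reg3g*, bactericidal lectins of the same family, were at 23.8 ± 8.35 CPM at day 8 and 7.34 ± 8.66 CPM at day 91 and at 156 ± 86.1 CPM at day 8 and 58.5 ± 51.1 CPM at day 91, with log2 changes of -1.62, edgeR adjusted p = 0.702, and -1.40, edgeR adjusted p = 0.74. *Ccl20*, which draws lymphocytes to mucosal follicles, was at 55.1, 42.9, 14.8, 49.5, and 79.7 CPM at day 8 and 2.42, 14.7, 11.5, 8.67, and 17.7 CPM at day 91 (-2.19, edgeR adjusted p = 0.655), where mouse 48 was below mouse 8 of day 91. *Reg3b* fell at the low concentrations (-2.21 with edgeR adjusted p = 0.000633), 1 of 5 of the 24 genes that did so, and 0 rose, where 2.87% and 3.63% of all genes did. *Mptx2*, a pentraxin of Paneth cells, was at 108, 177, 129, 50.9, and 105 CPM at day 8 and 32.98, 33.6, 19.3, 43.3, and 13.8 CPM at day 91 without overlap. Its log2 change of -1.98 (SE 0.580, edgeR adjusted p = 0.394) passed in a fit of the 10 libraries alone (adjusted p = 0.0216), and it fell at the low concentrations (-2.23 with edgeR adjusted p = 4.79e-07).

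Immunoglobulin variable segments, each used by some clones of plasma cells, included 2 of the called genes. The probe of *Igkv11-125* (chr6:67913573-67914052, plus strand), a kappa chain segment, gave 50.6, 19.8, 52.02, 35.9, and 26.2 CPM at day 8 and 0, 3.55, 10.8, 1.16, and 1.97 CPM at day 91, without overlap. The log2 change was -3.25 (SE 0.686, edgeR adjusted p = 0.0175), and the call was lost without mouse 48 (adjusted p = 0.106), mouse 3 (adjusted p = 0.158), mouse 7 (adjusted p = 0.179), and mouse 8 (adjusted p = 0.124). At the low concentrations it also fell (log2 change -3.31 (SE 0.416, edgeR adjusted p = 3.69e-09)), from a range of 1.11 to 103 CPM with a median of 24.8 to one of 0 to 20.1 CPM with a median of 2.62. *Ighv1-47* (chr12:114991108-114991580, minus strand), a heavy chain segment, was at 3.00, 4.86, 227, 446, and 3.23 CPM at day 8 and 1.70, 0.273, 6.49, 6.93, and 15.1 CPM at day 91. Mice 48 and 49 held nearly all of it, the groups overlapped, and without mouse 49 the adjusted p was 0.367, and it was 0.329 in a fit of the 10 libraries alone. Its second probe was at 0 in all but the same 2 crypts, with 26.5 and 28.9 CPM, which is at least 15.1-fold lower at day 91 when the group at 0 is taken at a floor of 3 counts per library (adjusted p = 0.0906). That call was lost without mouse 48, 49, 3, 5, 6, 7, or 8, with adjusted p from 0.21 without mouse 5 to 0.541 without mouse 49. It was also lost with log10 total count, the marker ratio, or the acinar sum as a covariate (adjusted p = 0.198, 0.224, and 0.15) and with thinned counts (adjusted p = 0.313). Such segments share sequence, so a probe may read several of them.

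Of 166 segments tested, 2 passed (0.0368% of all genes did), and 56 were higher and 107 lower, with a median log2 change of -0.36 (-0.28 at bounds), which ran from -0.55 without mouse 6 to -0.22 without mouse 49 when single libraries were left out. In 4 of them every day 91 library was below every day 8 library, which held for 0.331% of all genes. These were *Igkv11-125*, *Ighv2-6* (46.3 ± 27.6 CPM at day 8 and 3.18 ± 3.98 CPM at day 91), *Ighv3-3* (18.2 ± 5.27 CPM at day 8 and 5.61 ± 3.40 CPM at day 91), and *Ighv1-64* (103 ± 37.4 CPM at day 8 and 32.6 ± 12.6 CPM at day 91), the last 3 with adjusted p of 0.272, 0.66, and 0.676. Among crypts of the low concentrations 10 segments fell and 4 rose, against 2.87% and 3.63% of all genes. The constant region of IgA, *Igha*, the antibody of the gut lining and the most abundant gene of the plasma cell list, was at 1917, 3841, 3494, 5228, and 3983 CPM at day 8 and 5698, 5374, 10320, 4420, and 2877 CPM at day 91 (0.64, edgeR adjusted p = 0.712).

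Genes of mature B cells, as distinct from plasma cells, were high in the crypt of 1 day 8 mouse. *Cr2*, the complement receptor CD21, was at 0, 0, 0, 7.98, and 114 CPM at day 8 and 0, 0, 0.741, 0, and 0 CPM at day 91. *Pax5*, the transcription factor that fixes B cell identity, was at 0, 0, 0, 26.6, and 119.5 CPM and at 0 in every day 91 crypt. *Cd22* and the MHC class II chain *H2-Ob* were high in the same mouse, with 103 and 122 CPM in mouse 50. Mouse 50 was highest for each of these 4 genes, and mouse 49 was second at day 8. The villus library of mouse 50 was likewise the highest of the 9 untreated villi, with 29.8 CPM of *Cr2* and 43.7 CPM of *Cd22*. None of the 4 passed (adjusted p from 0.231 for *Cr2* to 0.519 for *Cd22*), except that *Cr2* had an adjusted p of 0.0996 without mouse 47 and DESeq2 called *Pax5* (and *Cd22* by another probe). Without mouse 50 the log2 change of *Cd22* was -1.25 in place of -3.33.

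**Figure D4:**
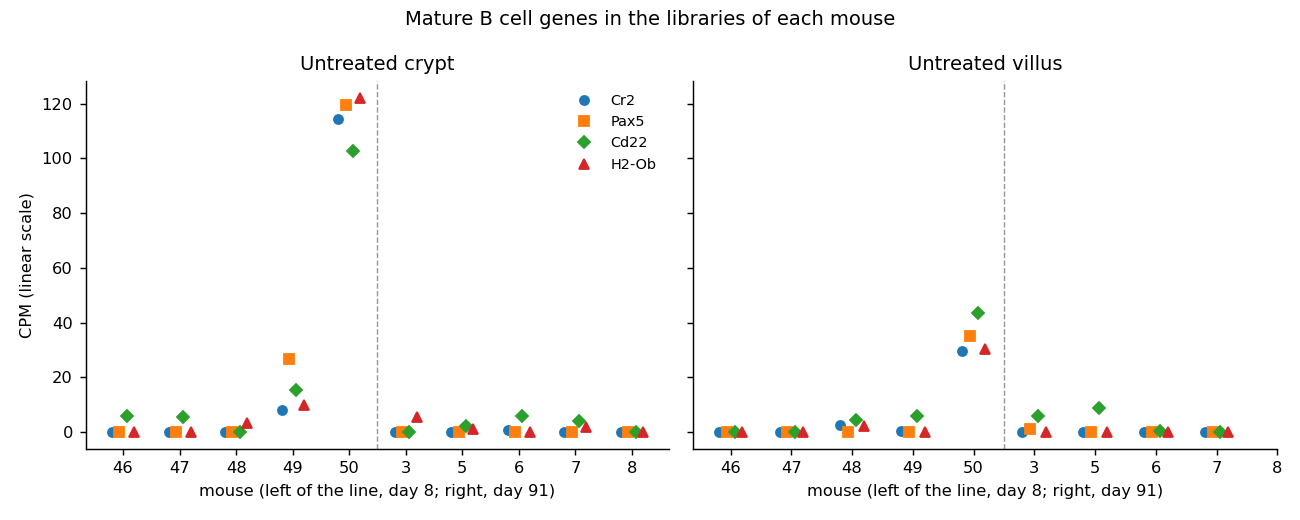
CPM (linear y axis) of *Cr2*, *Pax5*, *Cd22*, and *H2-Ob* in the crypt (left panel) and villus (right panel) libraries of each untreated mouse (x axis), with day 8 left of the dashed line and day 91 right of it. Mouse 8 has no villus library. Mouse 50 is highest in both panels, with *Cr2* at 114 CPM in the crypt and 29.8 CPM in the villus.

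Over the 31 genes of the B cell and plasma cell list, 0 passed in untreated crypts, 10 were higher and 21 lower, and the median was -0.67, from -0.79 without mouse 5 to -0.26 without mouse 50 over the libraries left out 1 at a time. Their sum, in which *Igha* is the largest part, went the other way, from 10276 ± 1736 CPM at day 8 to 12317 ± 3720.4 CPM at day 91. At the low concentrations 14 of the 31 fell and 4 rose (2.87% and 3.63% of all genes), and *Cd22* ran from 0 to 288 CPM with a median of 8.63 at day 8 to 0 to 5.35 CPM with a median of 1.66 at day 91 (-4.57 with edgeR adjusted p = 8.84e-08). The day 8 libraries were widely spread there too, while every day 91 library was low. In MHC class II, whose products present antigen on B cells, dendritic cells, and some epithelium, 1 of 11 tested genes were higher and 10 lower at day 91, with a median log2 change of -0.78, from -1.02 without mouse 48 to -0.18 without mouse 50. *Cd74*, the invariant chain and the most abundant member, was at 705 ± 279.6 CPM at day 8 and 603 ± 199 CPM at day 91 (SD, n = 5), lowest in mouse 3 of day 91 (258 CPM) and highest in mouse 50 (1097 CPM). In class I, 4 of 20 tested genes were higher and 15 lower at day 91, with a median log2 change of -0.39 (-0.30 at bounds) (from -0.45 without mouse 48 to -0.22 without mouse 49), and *H2-T23* was at 818 ± 411 CPM at day 8 and 617 ± 127 CPM at day 91.

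Lists of other immune cells also had more genes lower than higher at day 91, with no gene past the threshold. Among T cell and intraepithelial lymphocyte genes 4 of 30 tested genes were higher and 26 lower at day 91, with a median log2 change of -0.65 (-0.54 at bounds), which ran from -0.83 without mouse 47 to -0.47 without mouse 50. *Gzma*, a granule protease of those lymphocytes and the most abundant, was at 219 ± 142 CPM at day 8 and 148 ± 51.99 CPM at day 91, and *Ccr9*, the receptor that brings lymphocytes to the small intestine, at 19.2, 15.6, 13.8, 13.96, and 30.2 CPM at day 8 and 5.09, 4.37, 6.86, 6.93, and 11.8 CPM at day 91, without overlap (-1.46, edgeR adjusted p = 0.662). Of the T cell receptor segments 21 of 94 were higher and 63 lower (median -0.91 (-0.26 at bounds), from -1.06 without mouse 5 to -0.55 without mouse 49), and *Tcrg-C1* was at 15.6 ± 10.01 CPM at day 8 and 7.58 ± 2.46 CPM at day 91. The segments had a median level of 0.601 CPM and the T cell list one of 7.34 CPM. Whether level bears on these lists was not tested. Of all probes with a mean from 5 to 20 CPM, 53.2% of those not at 0 change were higher, with a median of 0.044. Under 1 CPM 41.4% were, with a median of -0.099. Olfactory receptors, which this tissue is not known to use and which serve as a gauge of such levels, had 203 of 746 genes higher and 417 lower, with a median of -0.54 (0 at bounds), from -1.01 without mouse 5 to 0 without mouse 46. Their most abundant gene, *Olfr739*, was at 21.3, 1.62, 3.69, 2.66, and 0 CPM at day 8 and at most 3.28 CPM at day 91. For macrophage and dendritic cell genes 4 of 22 tested genes were higher and 18 lower at day 91, with a median log2 change of -0.30, with *Tyrobp* at 179 ± 47.8 CPM at day 8 and 155 ± 41.7 CPM at day 91. For mast cells and eosinophils 4 of 16 tested genes were higher and 12 lower at day 91, with a median log2 change of -0.58 (-0.40 at bounds), and a single library turned its sign (from -0.98 without mouse 47 to 0.14 without mouse 46). *Mcpt1*, a mucosal mast cell protease, was at 23.8 ± 13.8 CPM at day 8 and 11.9 ± 7.96 CPM at day 91, and the mast cell carboxypeptidase *Cpa3* was at 4.79, 4.86, 5.54, 5.65, and 3.79 CPM at day 8 and 0, 2.73, 0, 1.35, and 0 CPM at day 91. For interferon-stimulated genes 9 of 39 tested genes were higher and 30 lower at day 91, with a median log2 change of -0.42, from -0.62 without mouse 47 to -0.22 without mouse 49, and *Irf1* was at 544 ± 122 CPM at day 8 and 465 ± 98.2 CPM at day 91.

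*Ugt2b5* (chr5:87124960-87140318, minus strand), higher at day 91, encodes an enzyme that joins glucuronic acid to steroids and drugs. Its called probe was at 0, 0, 0, 0, and 0.190 CPM at day 8 and 10.7, 1.64, 12.1, 3.85, and 17.7 CPM at day 91. It had 1 count in all of day 8 and 189 in day 91, a ratio of 175 with an exact 95% interval from 31.0 to 6940 that covers counting error only. The adjusted p was 0.0175, and 0.102 and 0.124 without mouse 48 and mouse 8. The gene's other probe, far more abundant, was at 99.1, 92.6, 48.9, 109.7, and 66.2 CPM at day 8 and 181, 128, 263, 172, and 218 CPM at day 91, without overlap, with a log2 change of 1.21 (SE 0.351, edgeR adjusted p = 0.394). With the 2 probes summed, the gene's log2 change was 1.30 (adjusted p = 0.286). The called probe at the low concentrations was already present at day 8, from 0 to 19.96 CPM with a median of 6.59, and its log2 change was 0.55 (SE 0.323, edgeR adjusted p = 0.435), whereas the abundant probe rose (1.15 with edgeR adjusted p = 1.98e-05). Members of the Ugt2b family share sequence, so reads may be split between them.

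The list of xenobiotic and drug metabolism genes leaned upward in untreated crypts, and 33 of 42 tested genes were higher and 9 lower at day 91, with a median log2 change of 0.32, from 0.25 without mouse 8 to 0.51 without mouse 49 over the libraries left out. None of the 42 passed by the probe that stands for the gene. The 3 members whose day 91 libraries were all above those of day 8 (0.468% of all genes) were *Ugt2b5* and the glutathione transferases *Gsta1* and *Gsta4*. *Gsta1* was at 772, 837, 624, 594, and 585 CPM at day 8 and 1291, 1463, 1547, 1412, and 1506 CPM at day 91, a log2 change of 1.08 (SE 0.381, edgeR adjusted p = 0.641). *Gsta4* was at 59.6, 85.8, 68.95, 70.8, and 40.6 CPM and 147, 145, 215, 142, and 132 CPM, a log2 change of 1.27 (SE 0.400, edgeR adjusted p = 0.51), which passed in a fit of the 10 libraries alone (adjusted p = 0.0772). *Gsta3* and *Gstm1*, of the same enzyme class and named after their values were seen, had log2 changes of 1.12 and 1.08, and neither passed. In the comparison at the low concentrations 19 of the 42 genes rose and 0 fell, where 3.63% and 2.87% of all genes did. *Gsta1* there ran from 300.4 to 1575 CPM with a median of 836 at day 8 to 995 to 2907 CPM with a median of 2226 at day 91 (1.24 with edgeR adjusted p = 3.01e-05), and *Gsta4* rose as well (1.23 with edgeR adjusted p = 8.47e-05).

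*1700109H08Rik* (chr5:3571566-3584356, plus strand), a protein-coding gene, was at 88.4, 53.6, 37.2, 103, and 24.1 CPM at day 8 and 2.18, 26.2, 15.01, 14.8, and 13.8 CPM at day 91, where mouse 5 was above mouse 50 of day 8. Its log2 change was -2.08 (SE 0.414, edgeR adjusted p = 0.0146), and was lost without mouse 49 (adjusted p = 0.172) and mouse 3 (adjusted p = 0.158) and in a fit of the 10 libraries alone (adjusted p = 0.166). Its other probe changed by -0.76 (SE 0.339, edgeR adjusted p = 0.676), and the called probe by -0.15 (SE 0.226, edgeR adjusted p = 0.87) at the low concentrations.

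Lists of the dividing and maturing crypt epithelium showed no gene past the threshold, and several were balanced between the directions. For mitotic cell cycle genes 16 of 32 tested genes were higher and 16 lower at day 91, with a median log2 change of -0.0017 (over the libraries left out 1 at a time from -0.18 without mouse 49 to 0.077 without mouse 47), and *Top2a*, a topoisomerase of dividing cells, was at 150.2 ± 47.6 CPM at day 8 and 168 ± 37.3 CPM at day 91 (SD, n = 5). For DNA replication genes 16 of 33 tested genes were higher and 17 lower at day 91, with a median log2 change of -0.0076 (from -0.21 without mouse 49 to 0.14 without mouse 50), and *Mcm6*, a part of the replicative helicase, was at 140.1 ± 51.7 CPM at day 8 and 132 ± 24.4 CPM at day 91. Mouse 49 had the lowest *Mcm6* of the 10 at 54.5 CPM. Intestinal stem cell genes were likewise divided (10 higher and 8 lower of 18, median 0.061), with *Olfm4*, a secreted glycoprotein of crypt base columnar cells, at 254, 375, 245, 60.2, and 173 CPM at day 8 and 321, 352, 297, 354, and 157 CPM at day 91. The sliding clamp gene *Pcna* was at 116 ± 48.0 CPM at day 8 and 115 ± 34.4 CPM at day 91 (SD, n = 5), and *Ephb2*, a Wnt target that keeps cells in the crypt, at 68.3 ± 39.3 CPM at day 8 and 54.6 ± 16.9 CPM at day 91. Wnt, Notch, and BMP signalling genes had a median of -0.047 (17 higher, 18 lower), with *Ctnnb1*, beta-catenin, at 287 ± 22.9 CPM at day 8 and 292 ± 27.2 CPM at day 91.

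Paneth cell products, the antimicrobial peptides and enzymes of the crypt base, varied widely between mice. Of 20 tested, 8 were higher and 12 lower (median -0.18, from -0.53 without mouse 5 to 0.11 without mouse 47). The defensin gene *Gm14851*, the most abundant, was at 13200, 14350, 7556, 1231, and 4300 CPM at day 8 and 7346, 8248, 4254, 4700, and 3399 CPM at day 91. *Defa22* was at 7583 ± 5892 CPM at day 8 and 5097 ± 2155 CPM at day 91 (SD, n = 5), *Lyz1* at 2411 ± 1631 CPM at day 8 and 2364 ± 1133 CPM at day 91, *Mmp7* at 593 ± 458 CPM at day 8 and 366 ± 121 CPM at day 91, and *Defa5* at 13.5 ± 11.4 CPM at day 8 and 19.3 ± 16.3 CPM at day 91. For each of these 4 genes the SD at day 8 was larger than the difference between the day means, and mouse 49 was low, with 904 CPM of *Defa22*. At the low concentrations *Defa5* fell (-1.43 with edgeR adjusted p = 0.00176). Of the 20 products 4 fell there and 0 rose, against 2.87% and 3.63% of all genes. Defensin genes are near copies of each other and their probes may share reads. Goblet cell genes were evenly divided (6 higher and 6 lower of 12, median 0.085, from -0.038 without mouse 5 to 0.33 without mouse 47), with the mucus lectin *Zg16* at 967, 1041, 2187, 2156, and 985 CPM at day 8 and 1031, 6318, 1464, 1682, and 1093 CPM at day 91, where mouse 5 was far above the rest. *Muc2*, the main gel-forming mucin, had a mean of 85.3 CPM at day 8 and 113 at day 91.

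Among genes of the hormone-making enteroendocrine cells 15 of 20 tested genes were higher and 5 lower at day 91, with a median log2 change of 0.52 (0.39 at bounds), from 0.32 without mouse 3 to 0.67 without mouse 47 when single libraries were left out. Their summed level was 387, 358, 413, 443, and 206 CPM at day 8 and 602, 668, 506, 530.4, and 482 CPM at day 91, so that every day 91 sum was above every day 8 sum. The sums of 46 lists could have shown such a separation, it was not tested, and none of the 20 genes passed. *Chgb*, a granin of hormone granules, was at 55.1, 50.8, 59.4, 41.9, and 24.1 CPM and 125, 117, 76.7, 83.8, and 70.4 CPM, without overlap (1.04, edgeR adjusted p = 0.66). *Ghrl*, ghrelin, had means of 26.3 CPM at day 8 and 57.3 at day 91, log2 change 1.139, edgeR adjusted p = 0.66. *Sst*, somatostatin and the most abundant, was at 80.7 ± 23.5 CPM at day 8 and 118 ± 16.9 CPM at day 91, and *Chga* had means of 68.00 CPM at day 8 and 97.5 at day 91, log2 change 0.53, edgeR adjusted p = 0.74. At the low concentrations 4 of the 20 rose, among them *Chgb* (0.87 with edgeR adjusted p = 0.00554), and 0 fell (3.63% and 2.87% of all genes). Tuft cell genes had 9 higher and 3 lower of 12 (median 0.21 (0.092 at bounds), from 0.029 without mouse 47 to 0.31 without mouse 7). Absorptive enterocyte genes had 11 higher and 21 lower of 32 (median -0.20, from -0.33 without mouse 47 to 0.23 without mouse 49), and *Fabp2*, a fatty acid carrier, was at 18670 ± 8714 CPM at day 8 and 19430 ± 5460 CPM at day 91 (SD, n = 5). *Vil1*, villin, was at 5400 ± 2198 CPM at day 8 and 4678 ± 1093 CPM at day 91, and *Klf4*, a factor of mature cells, at 32.7 ± 17.1 CPM at day 8 and 17.4 ± 9.92 CPM at day 91.

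Transport and metabolism lists had no gene past the threshold in untreated crypts. For calcium and phosphate transport 5 of 13 tested genes were higher and 7 lower at day 91, with a median log2 change of -0.055 (0 at bounds), and the calcium carrier *S100g* was at 2245, 1223, 396, 1512, and 668 CPM at day 8 and 158, 467, 1224, 1693, and 2276 CPM at day 91, with mouse 3 the lowest and mouse 8 the highest of day 91. For iron handling 6 of 15 tested genes were higher and 9 lower at day 91, with a median log2 change of -0.093, and the ferritin chain *Fth1* was at 3908 ± 1413 CPM at day 8 and 3652 ± 1178 CPM at day 91. Lipid and cholesterol genes had a median of 0.059 (20 higher, 16 lower), with *Dgat1* at 860.2 ± 185 CPM at day 8 and 964 ± 106 CPM at day 91. Cytosolic ribosomal proteins had 69 of 80 genes higher (median 0.17, from 0.044 without mouse 49 to 0.28 without mouse 50) and oxidative phosphorylation subunits 59 of 79 (median 0.19). *Rpl4* was at 2222 ± 597 CPM at day 8 and 2397 ± 638 CPM at day 91 and *Atp5a1*, a part of ATP synthase, at 1184 ± 179.5 CPM at day 8 and 1204 ± 145 CPM at day 91. The ribosomal sum was lowest in mouse 49, at 15718 CPM against 28568 or more in the other day 8 crypts. The 2 of 79 subunits whose day 91 libraries were all above day 8 (0.468% of all genes) were *Atp5g3* (184 ± 33.8 CPM at day 8 and 268 ± 31.7 CPM at day 91) and *Ndufb5* (159 ± 29.0 CPM at day 8 and 210.4 ± 18.3 CPM at day 91). Proteasome subunits had a median of 0.056 (22 higher, 18 lower), with *Psmd8* at 458 ± 56.04 CPM at day 8 and 408 ± 71.6 CPM at day 91. Replication-dependent histones had 36 of 44 genes higher (median 0.24, from 0.081 without mouse 3 to 0.43 without mouse 8), with *Hist2h3b* at 390.4 ± 147 CPM at day 8 and 436 ± 132 CPM at day 91 and *Hist1h2bc* at 102 ± 13.1 CPM at day 8 and 153 ± 20.7 CPM at day 91, the latter without overlap, whereas at the low concentrations 11 of the 44 fell and 1 rose, against 2.87% and 3.63% of all genes.

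Clock genes, which cycle over the day, can show when tissue was taken, and hours of collection are not given in the sources used here. In this list 6 of 20 tested genes were higher and 13 lower at day 91, with a median log2 change of -0.34 (-0.21 at bounds) (from -0.50 without mouse 47 to -0.051 without mouse 50 when single libraries were left out), and 0 passed. *Nr1d2*, a repressor of the clock loop, was at 27.3, 17.6, 21.6, 36.9, and 21.8 CPM at day 8 and 8.73, 15.01, 11.5, 12.1, and 2.29 CPM at day 91, without overlap (-1.27, edgeR adjusted p = 0.519). *Arntl*, which REV-ERB proteins repress, was at 7.19, 13.3, 6.46, 3.99, and 12.3 CPM and 24.7, 13.1, 21.9, 19.3, and 11.8 CPM (1.01, edgeR adjusted p = 0.664). *Dbp*, a direct output of the clock, was at 28.1, 13.3, 14.2, 40.9, and 21.2 CPM at day 8 and 6.06, 43.9, 2.22, 4.04, and 3.93 CPM at day 91, low in all day 91 crypts but that of mouse 5. Its log2 change was -1.01, edgeR adjusted p = 0.74, and ran from -2.52 without mouse 5 to -0.70 without mouse 6. It fell at the low concentrations, from 17.4 to 165 CPM with a median of 46.3 to 8.13 to 27.96 CPM with a median of 14.7 (-2.04 with edgeR adjusted p = 4.79e-07). *Clock*, the most abundant member, was at 129 ± 64.4 CPM at day 8 and 86.95 ± 18.5 CPM at day 91 (-0.56, edgeR adjusted p = 0.724), and rose at the low concentrations (0.64 with edgeR adjusted p = 0.0124). Past the threshold there were 3 higher and 2 lower of the 20, against 3.63% and 2.87% of all genes. Immediate early genes had a median of -0.078 (9 higher, 13 lower), with *Jund* at 240.5 ± 30.9 CPM at day 8 and 269.6 ± 53.95 CPM at day 91. Heat shock genes had 6 higher and 13 lower (median -0.25, from -0.31 without mouse 49 to -0.14 without mouse 8), with *Hspa5* at 2640 ± 494 CPM at day 8 and 2372 ± 605 CPM at day 91.

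Among lists tied to growth and age, imprinted growth genes had 11 higher and 6 lower of 17 (median 0.55, from 0.20 without mouse 7 to 0.72 without mouse 47), with *Ddc* at 667 ± 175 CPM at day 8 and 976 ± 255 CPM at day 91, and fetal growth regulators 8 higher and 4 lower (median 0.20, from 0.023 without mouse 49 to 0.39 without mouse 47), with *Igfbp3* at 133 ± 44.2 CPM at day 8 and 187 ± 59.5 CPM at day 91. Senescence and p53 target genes had a median of 0.10 (from -0.0011 without mouse 49 to 0.19 without mouse 48), with *Lmnb1*, the lamin lost in senescent cells, at 212 ± 37.3 CPM at day 8 and 221 ± 55.5 CPM at day 91 (SD, n = 5). Sirtuin and telomere genes had a median of -0.20 (from -0.33 without mouse 50 to -0.041 without mouse 46), with *Sirt3* at 87.5 ± 37.7 CPM at day 8 and 87.5 ± 30.6 CPM at day 91.

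In the tissue around the crypts, matrix and fibroblast genes had 8 higher and 20 lower of 28 (median -0.20, from -0.28 without mouse 49 to -0.11 without mouse 47 when single libraries were left out). *Col1a1*, a chain of type I collagen, was at 314, 530.4, 356, 127, and 441 CPM at day 8 and 128, 153, 151, 308, and 159 CPM at day 91. Mouse 49 was low for day 8 and mouse 7 high for day 91, and the log2 change was -0.97 (SE 0.284, edgeR adjusted p = 0.394). *Col1a1* fell at the low concentrations (-0.63 with edgeR adjusted p = 0.00898). Smooth muscle genes had 10 higher and 8 lower (median 0.082, *Mylk* at 992 ± 429.6 CPM at day 8 and 800 ± 259 CPM at day 91), and endothelial genes 10 higher and 9 lower (median 0.089, *Plvap* at 66.9 ± 17.2 CPM at day 8 and 53.3 ± 13.4 CPM at day 91). Enteric neuron and glia genes had 12 higher and 5 lower of 17 (median 0.54 (0.30 at bounds), from 0.13 without mouse 3 to 0.64 without mouse 50), with the neuropeptide *Vip* at 23.6 ± 12.9 CPM at day 8 and 38.9 ± 20.2 CPM at day 91. *Snap25*, of synaptic vesicle release, was at 0 in every day 8 crypt and at 3.40, 1.09, 1.11, 0.770, and 3.28 CPM at day 91, at least 2.41-fold higher at a floor of 3 counts per library (edgeR adjusted p = 0.662). Adipocyte genes had 1 higher and 8 lower of 10 (median -0.50, from -0.61 without mouse 8 to -0.29 without mouse 47, *Fabp4* at 32.5 ± 12.4 CPM at day 8 and 28.6 ± 15.6 CPM at day 91), Brunner gland genes 5 higher and 6 lower of 12 (median -0.21 (-0.11 at bounds), from -0.41 without mouse 50 to 0.69 without mouse 46, *Gkn3* at 5.70 ± 4.22 CPM at day 8 and 10.6 ± 4.95 CPM at day 91), and red blood cell genes 1 higher and 3 lower of 5 (median -2.62 (-1.32 at bounds), from -5.00 without mouse 5 to -1.72 without mouse 50, *Hba-a2* at 2.71 ± 3.01 CPM at day 8 and 4.07 ± 3.67 CPM at day 91). Pancreatic acinar genes had 25 higher and 1 lower of 27 (median 1.29, turned in sign by 1 library, from -0.99 without mouse 5 to 2.21 without mouse 48), with mice 5 and 7 the highest of day 91, while 3 of the 5 day 91 crypts held less acinar RNA than any of the first 4 mice of day 8. The median over genes and the difference of mean log2 sums given above thus differ in sign.

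**Figure D5:**
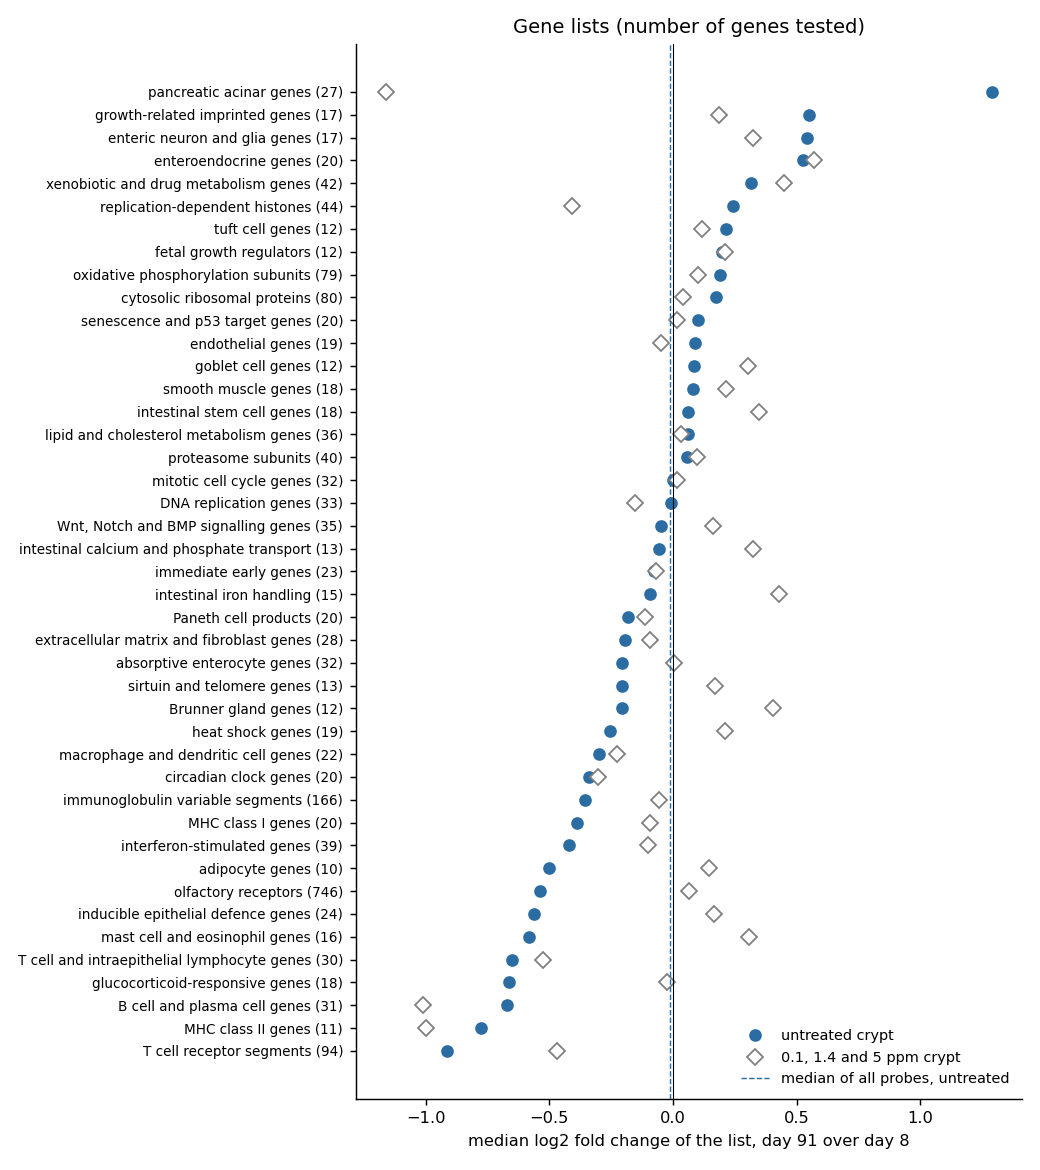
Median log2 change from day 8 to day 91 (x axis) of each gene list with 10 or more tested genes, with the number tested in brackets. Filled circles are the fitted medians of the untreated crypts, open diamonds those of the crypts at 0.1, 1.4, and 5 ppm, and the dashed line the median of all probes in untreated crypts (-0.012). The B cell and MHC class II lists lie left of 0 in both. The acinar genes lie right of 0 in untreated mice and left at the low concentrations, but their untreated median was 1.29 with all libraries and -0.99 without mouse 5.

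Across all probes the comparison at the low concentrations, with 15 and 16 libraries, called 1593 probes (6.04%), 814 higher (3.09%) and 779 lower (2.95%), of 1430 genes (a gene with probes in both directions counts in each). Of the 10 probes called in untreated crypts, 9 had the same sign there and 4 passed in the same direction, by *Fkbp5* (both probes), *Reg2*, and *Igkv11-125*. Of the 1593 probes, 1015 (63.7%) had the same sign in untreated crypts, where 48.2% of all probes did, and in 31 of them (1.95%) the untreated groups did not overlap in the same direction, where over all probes 0.463% did not overlap with day 91 above and 0.307% with day 91 below. The split of the low-concentration genes depended on the scaling, at 765 higher and 667 lower with TMM and 379 higher and 1154 lower with the size factors of DESeq2, which moved the median of all probes by -0.118 there and by -0.0138 in untreated crypts. Fewer genes passed when 1 concentration was left out, 708 without 0.1 ppm, 1168 without 1.4 ppm, and 242 without 5 ppm.

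Whether the day difference of untreated crypts differs from that at the low concentrations was tested as an interaction. In edgeR 0 genes passed (2192 probes at an unadjusted p under 0.05, smallest adjusted p = 0.221), and DESeq2 gave 15. Without mouse 50, 16 genes passed, with *Sgk1* the first (adjusted p = 0.0633). The 3 probes with the smallest p were those of *Sgk1* (log2 difference -2.54), *Enkur*, and *Relch*. *Enkur*, of sperm flagella and cilia, was at 1.80, 3.84, 4.62, 4.65, and 2.85 CPM at day 8 and at 0 in each of the 5 crypts of day 91, at least 4.85-fold lower at a floor of 3 counts per library. *Relch*, which acts in cholesterol transport between endosomes and the Golgi, was at 44.5 ± 11.8 CPM at day 8 and 27.5 ± 9.32 CPM at day 91, and its log2 changes were -0.69 in untreated crypts and 0.72 at the low concentrations.

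The villi of the same mice, 5 at day 8 and 4 at day 91, allow a test of whether the day difference differs between the compartments. For *Fkbp5* the villi held 107, 55.6, 112, 48.5, and 125 CPM at day 8 and 36.4, 24.8, 12.3, and 34.8 CPM at day 91, in mice 3, 5, 6, and 7. The crypt and villus changes differed by -0.067 (SE 0.582, edgeR adjusted p = 1). Over all probes 0 genes passed in the fit without pairing (2214 probes at an unadjusted p under 0.05, smallest adjusted p = 0.245), and 126 did in DESeq2. With mouse as a block, which pairs the 2 compartments of an animal, 75 genes passed, 68 with a higher log2 change in the crypt and 7 with a lower one. Among them were *Defa22* (log2 difference 2.31, edgeR adjusted p = 5.15e-10) and *Lyz1* (log2 difference 2.08, edgeR adjusted p = 6.31e-08). These 2 genes are named after their values were seen, so nothing is drawn from them about Paneth cell genes as a group. The crypt change of neither passed. The crypt markers in the villus libraries summed to 3208, 5209, 11544, 1295, and 2544 CPM at day 8 and 771, 1089, 462, and 2154 CPM at day 91, so that 4 of the 5 day 8 villi were above every day 91 villus, and the part this plays in the 75 genes was not tested. The villus library of mouse 48 went against its label, with more of the crypt markers than the crypt library of that mouse (9393 CPM). Its villus markers summed to 5113 CPM, against 4848 CPM in that crypt. *Defa22* was at 8350 CPM in that villus and 6389 CPM in that crypt. The unpaired count also rested on the villus of mouse 7, without which 165 genes passed. It was 0 with mice 48 and 49 left out in both compartments. The 3 probes with the smallest unpaired p were *Lclat1*, an acyltransferase of cardiolipin (4.67 ± 4.64 CPM at day 8 and 10.1 ± 4.30 CPM at day 91 in crypts), *Fam210a* (45.5 ± 19.4 CPM at day 8 and 56.8 ± 12.9 CPM at day 91), and *Ssh2*, a phosphatase that acts on cofilin (12.3 ± 6.65 CPM at day 8 and 10.8 ± 8.80 CPM at day 91), each with adjusted p = 0.245. Their crypt log2 changes were 0.95, 0.33, and -0.19. In the villi *Lclat1* was at 14.5 ± 17.7 CPM at day 8 and 0 CPM at day 91. *Fam210a* went from 38.5 ± 22.8 to 8.07 ± 10.6 CPM there, and *Ssh2* from 1.90 ± 2.54 to 27.6 ± 10.6 CPM.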

How the data were processed

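The deposited table holds whole-number counts of reads per probe (30146 probes, 137 libraries), which the authors took from single-end Illumina reads. The submitters' notes name bcl2fastq 2.17.1.14 and Bowtie, and a genome build is not given in the sources used here. The paper states that samples of low depth or diversity were left out of its comparisons. The deposited table holds more libraries than the paper kept, so it may include some of them. None of the 137 libraries was left out of the main fit. Every value column was mapped to a sample by its name.

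All 137 libraries in 28 groups of compartment, concentration, and day were fitted in 1 model (edgeR 4.0.16 in R 4.3.3, quasi-likelihood test without the legacy option, TMM scaling, filterByExpr). P-values were adjusted over all probes by Benjamini and Hochberg, and an adjusted p under 0.1 was called. On simulated data most of the probes that this form called were unchanged ones, and none of those called by the form that edgeR uses by default, so both counts and that of DESeq2 1.42.0 are given. CPM are scaled by TMM. Where a group was at 0, a floor of 3 counts per library gave the bound of a fold. Sums and depths were compared with exact permutation tests. Gene positions are from GENCODE M21 (GRCm38) by symbol, and promoters from RefSeq.

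Some genes are not reported here. The lists, the libraries compared, and the tests were chosen with earlier results of these data known. Named genes are those called (immunoglobulin segments and genes known by a Rik number left out), up to 4 called members or else the most abundant member of each list, the 8 compartment markers, and the 3 probes with the smallest p of each interaction. Other named genes, the called *Ighv1-47*, *Igkv11-125*, and *1700109H08Rik* among them, were chosen after their values were seen. In lists a gene is represented by its probe with the most counts. Different mice are biological replicates. Crypt and villus libraries share a mouse by their labels, and their deviations from group means correlated with r from 0.01 to 0.436 (9 mice, 15114 probes). Alternatives covered the tool, form, scaling, filters, depth, probes, covariates, threshold, pairing, and libraries left out.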

Additional observations from a re-analysis of the deposited data

Results flagged for a closer look

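Groups of 5 libraries were examined for a single library far from the other 4, which is so where its gap to the nearest exceeds 0.71 of the group's range. Of 288 groups of summed lists and named genes 36 (12.5%) held one. The rule gives about 5% (1 in 20) by chance for normally distributed values only. A group with counts in 1 library alone is always flagged, as for *Ugt2b5* at day 8 and *Cr2* at day 91. Nothing is therefore drawn from the share. The groups are not independent, since 1 library can stand apart for many genes, and no cause was tested. At day 8, mouse 46 stood apart for the summed level of Brunner gland genes (93.5 CPM), adipocyte genes (128 CPM), and olfactory receptors (1305 CPM) and for *Olfr739* (21.3 CPM). At day 8, mouse 49 stood apart for the summed level of DNA replication genes (529.6 CPM), cytosolic ribosomal proteins (15720 CPM), lipid and cholesterol metabolism genes (4427 CPM), and mitotic cell cycle genes (534 CPM) and for *Sgk1* (107 CPM) and *Lmnb1* (146 CPM). At day 8, mouse 50 stood apart for the called probe of *Ugt2b5* (0.190 CPM), *Cr2* (114 CPM), *H2-Ob* (122 CPM), *Pax5* (119.5 CPM), and *Cd22* (103 CPM). At day 91, mouse 3 stood apart for the summed level of MHC class I genes (1618 CPM) and MHC class II genes (539 CPM) and for *Zbtb16* (19.4 CPM) and *Cd74* (258 CPM). At day 91, mouse 5 stood apart for the summed level of goblet cell genes (8311 CPM) and pancreatic acinar genes (211700 CPM) and for *Mt2* (276 CPM), *Zg16* (6318 CPM), *Dbp* (43.9 CPM), and *Cpa1* (34370 CPM). At day 91, mouse 6 stood apart for *Cr2* (0.741 CPM), *Gsta4* (215 CPM), and *Tcrg-C1* (11.9 CPM). At day 91, mouse 7 stood apart for the summed level of mitotic cell cycle genes (1709 CPM) and for *Col1a1* (308 CPM) and *Ephb2* (83.6 CPM). At day 91, mouse 8 stood apart for the summed level of adipocyte genes (126 CPM) and for the second probe of *Fkbp5* (2.62 CPM), *Olfm4* (157 CPM), *Fabp4* (55.7 CPM), and *Pcna* (54.7 CPM). Without mouse 49, the library of villus character, 4 genes passed between the days, and without mouse 50, 12 did.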

How the results depend on the processing

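In untreated crypts 8 genes passed in the main form, 6 at an adjusted p under 0.05, 9 with the size factors of DESeq2, 8 with no filter, 10 with a mean count of at least 10, 9 with log10 total count as a covariate, 6 with counts thinned to the smallest total, 7 with probes summed, 7 with the marker ratio and 8 with the acinar sum as covariates, and 6 with the 10 libraries alone. The count moved by over 1.5 times in the default form of edgeR (1), in DESeq2 (24), without mice 7 and 49 (5), and over the libraries left out 1 at a time (2 to 13). No called probe passed in all of these 10 leave-one-out fits. Without mice 7 and 49 together the calls of *Fkbp5* and *Ighv1-47* (both probes each), *Sgk1*, *Igkv11-125*, and *1700109H08Rik* were lost. At the low concentrations the 1430 genes (765 higher and 667 lower) became 1032 in the default form of edgeR (667 higher and 365 lower). In DESeq2 they became 1096 (366 higher and 733 lower). The rises and falls given for single genes and lists there are those of the main form. The count was 923 at an adjusted p under 0.05, 805 with log10 total count as a covariate, 2453 with the libraries of the contrast alone, 708 without 0.1 ppm, and 242 without 5 ppm. For the difference from the villus the count of 0 became 10 in the default form, 126 in DESeq2, 5 with thinned counts, and 0 to 165 over the libraries left out (2 without the crypt of mouse 3 or the villus of mouse 6, and 165 without the villus of mouse 7). With mouse as a replicate block it was 75, and the block bears on no other comparison, since each mouse has 1 crypt library. For the difference from the low concentrations the count of 0 became 1 in the default form, 15 in DESeq2, 3 with thinned counts, 4 without 1.4 ppm, and 0 to 16 over the libraries left out (16 without mouse 50). The causes of these shifts were not tested.

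Some named genes changed sign, none of them called. With the acinar sum as a covariate the log2 change reversed for *Cpa1* (-0.18). Without mice 7 and 49 the log2 change reversed for *Vil1* (0.046), *Hba-a2* (-0.14), *Rpl4* (-0.029), *Hist2h3b* (-0.18), *Top2a* (-0.13), *Fth1* (0.050), *Lmnb1* (-0.17), *Atp5a1* (-0.004), and *Ctnnb1* (-0.006). With counts thinned to the smallest total the log2 change reversed for *Ssh2* (0.031) and *Sirt3* (-0.045). With log10 total count as a covariate the log2 change reversed for *Fabp2* (-0.014), *Atp5a1* (-0.030), and *Ctnnb1* (-0.026). With probes of a gene summed the log2 change reversed for *Lyz1* (0.002). With the crypt to villus marker ratio as a covariate the log2 change reversed for *Lyz1* (0.14). In DESeq2 the log2 change reversed for *Sirt3* (-0.016). With the size factors of DESeq2 the log2 change reversed for *Sirt3* (-0.012). With a mean count of at least 10 the log2 change reversed for *Sirt3* (-0.005). With the libraries of the contrast alone the log2 change reversed for *Sirt3* (-0.011). Over the libraries left out 1 at a time the log2 change ranged from -0.15 to 0.85 for *Zg16*, -0.92 to 2.77 for *Cpa1*, -0.34 to 0.047 for *Vil1*, -0.23 to 0.90 for *Defa5*, -0.059 to 0.21 for *Rpl4*, -0.041 to 0.31 for *Hist2h3b*, -0.74 to 0.11 for *Ssh2*, -0.29 to 0.040 for *Mcm6*, -0.25 to 0.051 for *Fth1*, -0.065 to 0.15 for *Lmnb1*, -0.080 to 0.34 for *Fabp2*, -0.058 to 0.090 for *Atp5a1*, -0.008 to 0.070 for *Ctnnb1*, -0.19 to 0.21 for *Pcna*, -0.45 to 0.29 for *S100g*, -0.30 to 0.30 for *Lyz1*, and -0.20 to 0.23 for *Sirt3*. The day difference in probes detected then ranged from -678 to 854, and the log2 differences of the summed crypt markers, villus markers, and acinar genes from -0.63 to 0.31, -0.33 to 0.047, and -1.46 to 0.42. A day difference in counts below a few per library was not detectable at this depth.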

Other observations

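DESeq2 called 24 genes between the days, and 6 of them are given here, chosen after their values were seen and from no fixed list, so that nothing is drawn from their number. They were *Pax5* (adjusted p = 9.64e-09), *Ighd* (adjusted p = 8.36e-07), *Ms4a1* (adjusted p = 1.44e-06), *Cxcr5* (adjusted p = 2.29e-05), *Fcer2a* (adjusted p = 3.92e-05), and *Cd22* (adjusted p = 0.0828). *Ighd*, the heavy chain of IgD, was at 14.2 ± 30.2 CPM (SD, n = 5) at day 8. *Ms4a1*, which encodes CD20, was at 8.37 ± 14.97 CPM (SD, n = 5) at day 8. *Cxcr5*, the receptor that guides B cells to follicles, was at 6.42 ± 12.2 CPM (SD, n = 5) at day 8, and *Fcer2a*, the low-affinity IgE receptor, at 5.54 ± 10.7 CPM (SD, n = 5) at day 8. The called probes of these 4 genes had no count in any day 91 crypt, and the SD at day 8 exceeded the mean. DESeq2 called *Egr3*, an immediate early factor, with an adjusted p of 8.05e-21 although it was at only 3.33 ± 3.33 CPM (SD, n = 5) at day 8 and 0 at day 91, where edgeR gave an adjusted p of 0.641. Of the genes named above that edgeR called, DESeq2 also called *Ugt2b5*, *1700109H08Rik*, *Fkbp5*, and *Sgk1*, and did not call *Reg2*, *Ighv1-47*, or *Igkv11-125*.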
